A study of Mus musculus with 12 samples.

Results

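The genes described here encode the vacuolar proton pump of the lysosome (the V-ATPase) and the nutrient-sensing machinery that sits on the lysosomal membrane. They were chosen by name as the rows of the deposited gene table for 34 genes, out of 26855 genes in that table. Earlier results of these data were known when the list was chosen. All 34 passed the filter on low counts and were among the 12625 genes tested. The list holds 8 subunits of the membrane part of the pump (V0), 8 subunits of its cytosolic part (V1), 2 accessory subunits, the 5 genes of the Ragulator complex, 3 Rag GTPases, 3 genes of the folliculin complex, 3 genes for mTORC1 and a lysosomal arginine sensor, and the 2 genes of a lysosomal chloride exchanger.

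Cells came from bronchoalveolar lavage fluid of mice, taken 14 days after bleomycin, an agent that injures the lung and leads to fibrosis. Every group had bleomycin, and no uninjured mice were compared here. The lavage was split with a size filter into fractions rich and poor in border-associated alveolar macrophages (BAAM), and alveolar macrophages were then sorted by side scatter (SSC) and by BODIPY, a dye for neutral lipid. Gates high for both were set against gates low or intermediate for both. Libraries are titled UPBIG, UPSMALL and DOWN, with 4 in each group, and the labels do not state which filter fraction or gate each title stands for, nor the strain, sex or age of the mice. They do not say whether the 4 libraries of a group came from separate mice, so p-values measure only how these samples vary, and that variation may be technical. Cells went into lysis without RNA extraction, and cDNA of full length was prepared from RNA with a poly(A) tail.

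The V-ATPase uses ATP hydrolysis in V1 to turn a ring of V0 subunits, which carries protons into the lysosome. Acid activates lysosomal enzymes, and a chloride-proton exchanger, CLC-7 with its partner OSTM1, moves chloride against protons across the same membrane. Ragulator anchors the Rag GTPases to the lysosome and contacts the V-ATPase; when amino acids are present, the Rags recruit the kinase complex mTORC1. The folliculin complex acts on RagC and RagD, the Rags needed for mTORC1 to phosphorylate the MiT/TFE transcription factors. These factors bind E-box sequences upstream of many lysosomal genes. Macrophages depend on this system to digest what they engulf.

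Start regions of 6 members are shown here because the E-box is the sequence by which the MiT/TFE factors are known to bind lysosomal genes, and because Rragd had the highest fold change of the 34. RefSeq start regions (GRCm38.p6, 250 bases before to 50 after the annotated start) were matched for 27 of the 34 members, giving 32 regions. For 23 of the 32, a stretch just after the start was found in a GENCODE (vM21) transcript of the same gene. The core CACGTG was searched for, and the longer form TCACGTGA, which contains the core; both read the same on either strand. The core was present in 9 of the 32 regions, 1 region for each of 9 genes, and in 7.15% of all 32851 RefSeq start regions of this length. The longer form was present in 4 of the 32 regions, against 0.974% of all regions. Those 4 belonged to Atp6v0d1, Atp6v0e, Atp6v1a and Clcn7. Among members higher in UPBIG than DOWN that had a region, 4 of 12 held the core, and 5 of the other 15 did. No region was matched for Atp6v0d2, Atp6v1b2, Atp6v1c1, Atp6v1g1 and Lamtor3, all higher in UPBIG than DOWN, nor for Atp6v0a2 and Atp6v1h. In the sequences, each 5′ to 3′ on its gene's strand, capitals mark the core or the longer form, and the Rragd region holds neither.
Atp6v0d1, chr8:105566015-105566314, minus strand: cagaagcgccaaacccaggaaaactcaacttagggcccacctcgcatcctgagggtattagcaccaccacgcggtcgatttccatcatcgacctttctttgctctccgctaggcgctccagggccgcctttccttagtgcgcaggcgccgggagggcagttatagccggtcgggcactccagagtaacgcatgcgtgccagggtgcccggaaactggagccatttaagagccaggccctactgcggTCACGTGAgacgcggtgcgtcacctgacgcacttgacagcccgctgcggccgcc
Atp6v0e, chr17:26676146-26676445, plus strand: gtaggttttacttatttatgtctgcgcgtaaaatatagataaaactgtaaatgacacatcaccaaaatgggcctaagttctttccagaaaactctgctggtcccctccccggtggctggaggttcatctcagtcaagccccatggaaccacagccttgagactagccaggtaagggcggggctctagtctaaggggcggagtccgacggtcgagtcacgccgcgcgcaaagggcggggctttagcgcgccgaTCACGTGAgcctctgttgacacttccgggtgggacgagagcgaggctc
Atp6v1a, chr16:44139210-44139509, minus strand: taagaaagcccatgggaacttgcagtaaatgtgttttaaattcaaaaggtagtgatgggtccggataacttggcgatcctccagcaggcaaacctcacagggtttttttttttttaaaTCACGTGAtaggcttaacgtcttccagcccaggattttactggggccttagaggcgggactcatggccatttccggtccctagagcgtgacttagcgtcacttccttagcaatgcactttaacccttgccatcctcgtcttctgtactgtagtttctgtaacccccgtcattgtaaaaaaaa
Clcn7, chr17:25133141-25133440, plus strand: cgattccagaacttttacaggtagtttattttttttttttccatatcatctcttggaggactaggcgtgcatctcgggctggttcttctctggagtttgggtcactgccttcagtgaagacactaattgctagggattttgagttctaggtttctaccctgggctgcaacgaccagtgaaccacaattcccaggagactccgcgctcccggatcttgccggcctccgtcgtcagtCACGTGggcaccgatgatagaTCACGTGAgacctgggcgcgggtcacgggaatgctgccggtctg
Rragc, chr4:123917183-123917482, plus strand: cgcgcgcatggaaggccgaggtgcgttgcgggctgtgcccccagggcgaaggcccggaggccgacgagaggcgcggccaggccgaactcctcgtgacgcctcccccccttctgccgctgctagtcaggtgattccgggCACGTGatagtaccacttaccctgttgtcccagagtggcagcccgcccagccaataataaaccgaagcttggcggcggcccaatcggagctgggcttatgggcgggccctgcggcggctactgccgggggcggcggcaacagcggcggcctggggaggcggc
Rragd, chr4:32982748-32983047, plus strand: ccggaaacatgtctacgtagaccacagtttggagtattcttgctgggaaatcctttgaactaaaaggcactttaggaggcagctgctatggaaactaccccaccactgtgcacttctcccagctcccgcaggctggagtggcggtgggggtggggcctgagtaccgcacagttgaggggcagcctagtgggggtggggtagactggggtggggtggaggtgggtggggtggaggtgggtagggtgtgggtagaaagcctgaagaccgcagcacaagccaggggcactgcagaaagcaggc
The core began 3 bases before the RefSeq start of Atp6v0d1 and 131 bases before that of Atp6v1a. The regions shown for Atp6v1a and Atp6v0e lie inside the GENCODE bounds of their genes, so these RefSeq starts are not the outermost ones annotated. A match describes letters in this window and not binding.

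Of the 34 genes, 17 were higher in UPBIG than in DOWN libraries, called at an adjusted p under 0.05 by edgeR's quasi-likelihood test with Benjamini-Hochberg adjustment over all genes tested. By the same rule 9.03% of all genes tested were higher. The members were chosen with earlier results of these data known, so this contrast is a description and no test. The 17 held 7 of 8 V1 subunits, 4 of 8 V0 subunits, both accessory subunits, Rragc and Rragd, Lamtor3 and Fnip2. No member was lower, by edgeR, by DESeq2, by limma-voom or at an unadjusted p under 0.05 (0 in each case), while 8.48% of all genes tested were lower. The median log2 fold change of the 34 was 0.43, against -0.03 over all genes tested, and 29 of the 34 values were above 0. Against UPSMALL libraries, 11 members were higher in UPBIG and 0 lower; 3.22% of all genes were higher and 2.49% lower. The median of the 34 was 0.33 in that comparison, and that of all genes tested was again -0.03. The comparisons of UPBIG with DOWN and with UPSMALL share the UPBIG libraries.

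**Figure D1:**
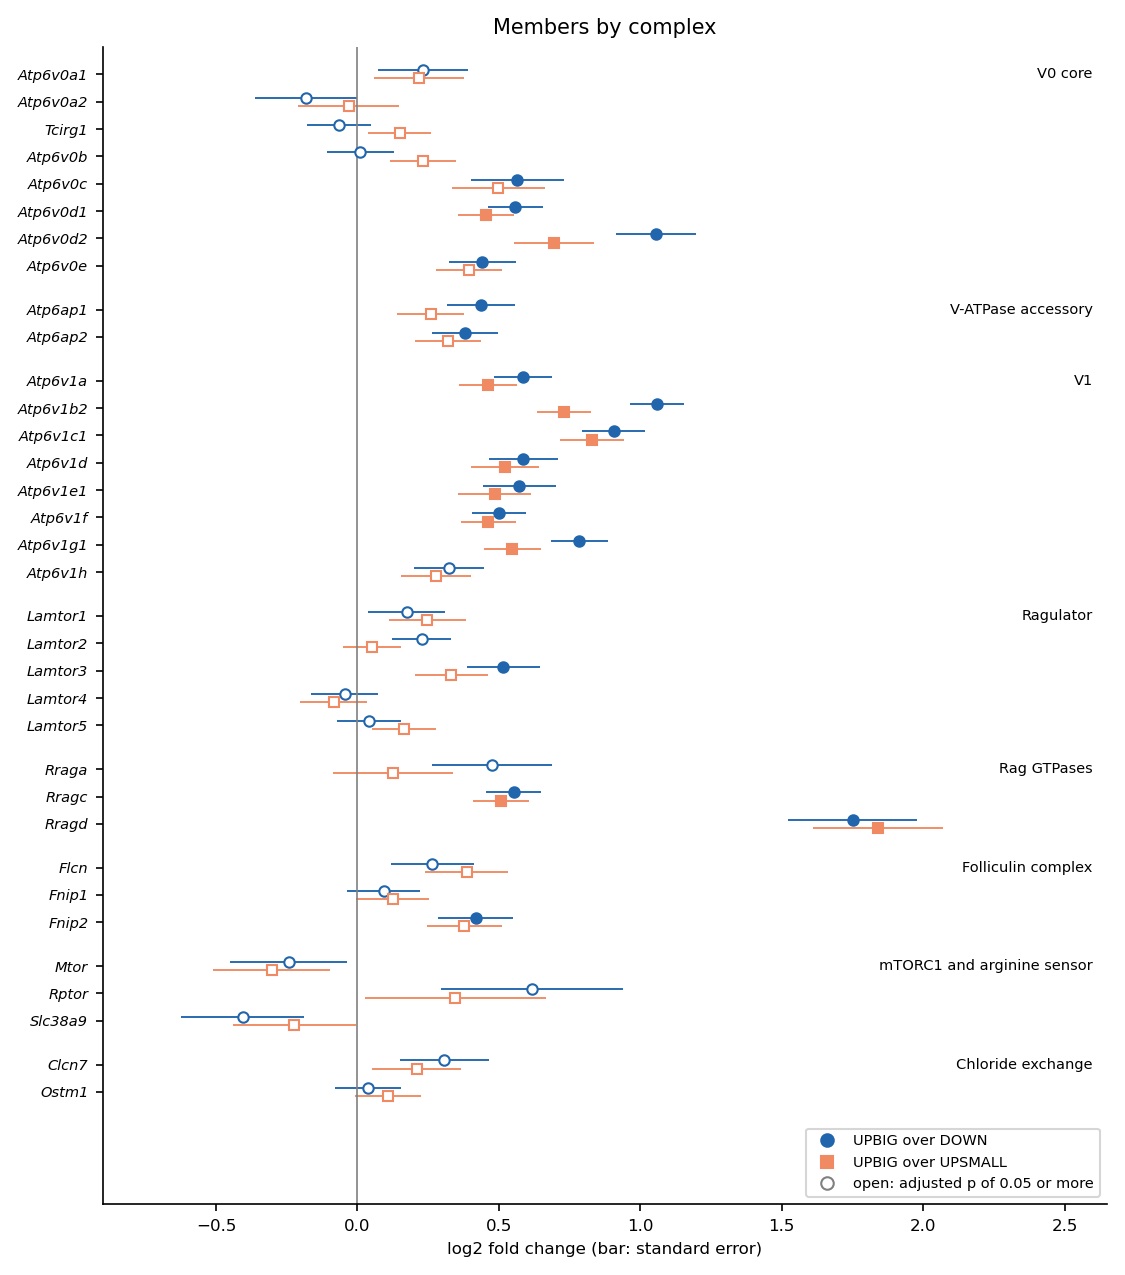
Log2 fold change of each of the 34 members, by complex, for UPBIG over DOWN (circles) and UPBIG over UPSMALL (squares); bars are standard errors and filled symbols have an adjusted p under 0.05. Rragd lies farthest right at 1.75 and 1.84, and 29 members lie right of 0 for UPBIG over DOWN, of which 9 move to the left of 0 when libraries are scaled by their totals alone.

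Counts were put on a common scale with TMM factors, which were 0.858 to 0.896 in UPBIG libraries, 0.992 to 1.17 in UPSMALL libraries and 1.03 to 1.16 in DOWN libraries. In UPBIG libraries 3 genes, Lyz2, Ftl1 and Fth1, took 26.5 to 29.1% of counts, against 15.5 to 23.8% in UPSMALL and 19.5 to 22.0% in DOWN libraries. Scaled by library totals alone, all genes tested had a median of -0.36 for UPBIG over DOWN and the members one of 0.11. Such a change of scaling moves all genes by nearly the same amount. The distance between these medians was therefore bound to stay about the same and is no test of the members. Under that scaling 5 members were called higher (Atp6v0d2, Atp6v1b2, Atp6v1c1, Atp6v1g1 and Rragd) and 5 lower (Atp6v0a2, Tcirg1, Atp6v0b, Lamtor4 and Slc38a9). Of all genes tested, 518 were then higher and 3237 lower. Fold changes given here are on the TMM scale, relative to the median of all genes. In bulk libraries a share of cells and a level of RNA per cell cannot be told apart.

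**Figure D2:**
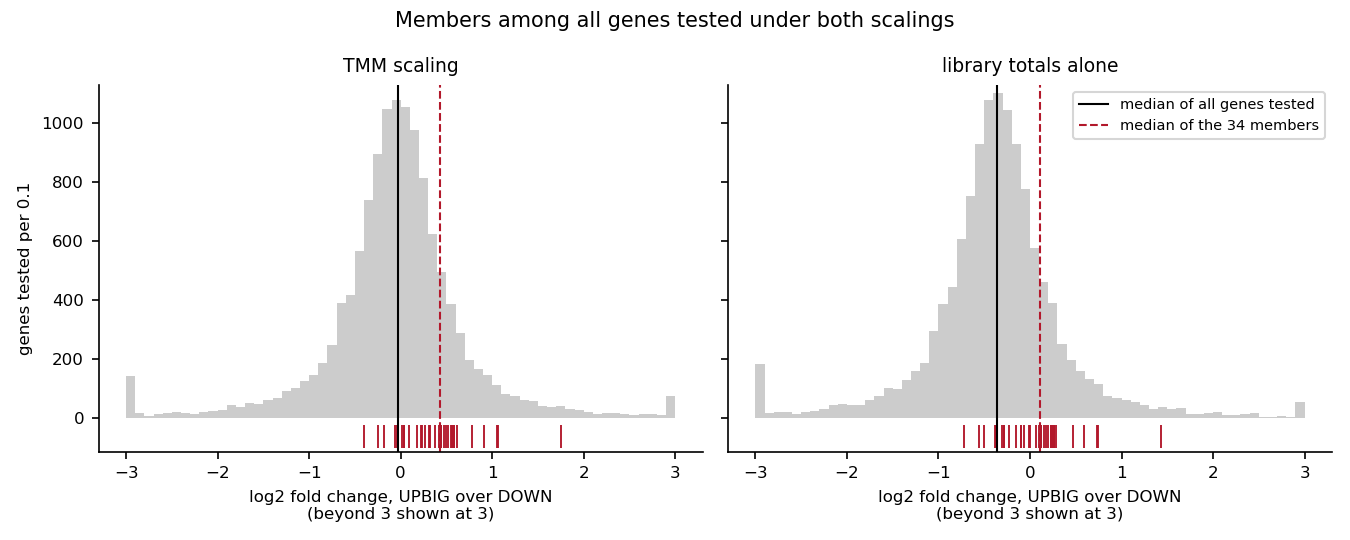
Histogram of log2 fold changes, UPBIG over DOWN, for all 12625 genes tested, with TMM scaling on the left and library totals alone on the right; red ticks are the 34 members. The median of all genes (black line) is -0.03 and then -0.36, that of the members (dashed line) 0.43 and then 0.11.

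V1 was the part of the pump with the most members called: 7 of its 8 subunits were higher in UPBIG than in DOWN libraries and 7 of 8 were higher than in UPSMALL libraries. Atp6v1b2 (chr8:69088646-69113711, plus strand, GRCm38), the B subunit, which forms the head of the motor with the A subunit, had 705, 741, 718 and 704 CPM (counts scaled to a common library total) in UPBIG libraries. It had 435, 484, 411 and 399 CPM in UPSMALL libraries, and 342, 342, 338 and 355 CPM in DOWN libraries. The 3 groups did not overlap at any point. Its log2 fold change was 1.06 ± 0.10 (SE) for UPBIG over DOWN, or 2.08-fold (adjusted p = 2.93e-07), and 0.73 ± 0.10 for UPBIG over UPSMALL (adjusted p = 6.80e-05).

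Atp6v1c1, the C subunit, is the peripheral stalk subunit that leaves when the yeast enzyme comes apart. Its levels were 346, 350, 355 and 342 CPM in UPBIG libraries, 196, 226, 208 and 153 CPM in UPSMALL libraries and 180, 196, 191 and 176 CPM in DOWN libraries. UPBIG libraries stood clear of both other groups, which overlapped with each other. The log2 fold change was 0.91 ± 0.11 over DOWN (adjusted p = 1.44e-05) and 0.83 ± 0.11 over UPSMALL (adjusted p = 9.84e-05). Atp6v1g1, a G subunit of the same stalks, had 1025, 1061, 1022 and 1164 CPM in UPBIG libraries, 746, 742, 691 and 742 CPM in UPSMALL libraries and 619, 614, 690 and 558 CPM in DOWN libraries. Here too all 3 groups were apart, although UPSMALL and DOWN came within 2 CPM of each other (691.5 and 690.02 CPM). The log2 fold change of Atp6v1g1 was 0.78 ± 0.10 over DOWN (adjusted p = 2.14e-05) and 0.55 ± 0.10 over UPSMALL (adjusted p = 0.00191). For these 3 genes the difference from DOWN also passed with library totals alone, at 0.74 for Atp6v1b2, 0.58 for Atp6v1c1 and 0.47 for Atp6v1g1. Over UPSMALL, Atp6v1b2 (0.46) and Atp6v1c1 (0.56) passed with that scaling, and Atp6v1g1 did not (0.27, adjusted p = 0.0895).

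The catalytic A subunit, Atp6v1a, had 293 to 370 CPM in UPBIG libraries, 228 to 260 CPM in UPSMALL libraries and 208 to 241 CPM in DOWN libraries. Its log2 fold change was 0.59 ± 0.10 over DOWN (adjusted p = 0.000514) and 0.46 ± 0.10 over UPSMALL (adjusted p = 0.00898). Atp6v1d and Atp6v1f form the central stalk that turns the ring. Atp6v1d had 240.3 to 322 CPM in UPBIG libraries, 169 to 218 CPM in UPSMALL libraries and 169 to 207 CPM in DOWN libraries. It was 0.59 ± 0.12 higher on the log2 scale in UPBIG than in DOWN libraries (adjusted p = 0.00213) and 0.52 ± 0.12 higher than in UPSMALL libraries (adjusted p = 0.0128). Atp6v1f, with 754 to 863 CPM in UPBIG, 551 to 626 CPM in UPSMALL and 532 to 598 CPM in DOWN libraries, differed by 0.50 ± 0.10 (adjusted p = 0.00126) and 0.46 ± 0.10 (adjusted p = 0.00576) in the same comparisons. Atp6v1e1, the E subunit of the peripheral stalks, had 754 to 836 CPM in UPBIG libraries, 450 to 677 CPM in UPSMALL libraries and 427 to 586 CPM in DOWN libraries, with a log2 fold change of 0.57 ± 0.13 over DOWN (adjusted p = 0.00395) and 0.49 ± 0.13 over UPSMALL (adjusted p = 0.0295). The comparison with UPSMALL did not pass for Atp6v1e1 without UPBIG replicate 2 or 4 or UPSMALL replicate 1, 3 or 4 (adjusted p of 0.0594 to 0.0848), nor for Atp6v1d without UPBIG replicate 4 (adjusted p = 0.0557). With library totals alone Atp6v1a, Atp6v1d, Atp6v1e1 and Atp6v1f kept a positive value over DOWN, of 0.18 to 0.27, but did not pass. Their values over UPSMALL, of 0.19 to 0.25, did not pass with that scaling either.

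Atp6v1h, the H subunit, which links V1 to V0, was the V1 member that did not pass. It had 98.8, 101, 87.8 and 78.1 CPM in UPBIG libraries, 70.3, 92.6, 65.5 and 73.1 CPM in UPSMALL libraries and 77.0, 69.7, 75.2 and 70.3 CPM in DOWN libraries. UPBIG and DOWN did not overlap, but the lowest UPBIG library lay about 1 CPM above the highest DOWN library. On the log2 scale the difference was 0.32 ± 0.12 (adjusted p = 0.0803), and it passed without UPBIG replicate 4 (adjusted p = 0.0473). Together with Lamtor2 and the 17 called genes, Atp6v1h brought to 19 the members whose 4 UPBIG libraries all lay above the 4 DOWN libraries; 11.0% of all genes tested did so. Against UPSMALL, 12 members were apart in this way, the 11 called ones and Atp6v0e, beside 6.47% of all genes.

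**Figure D3:**
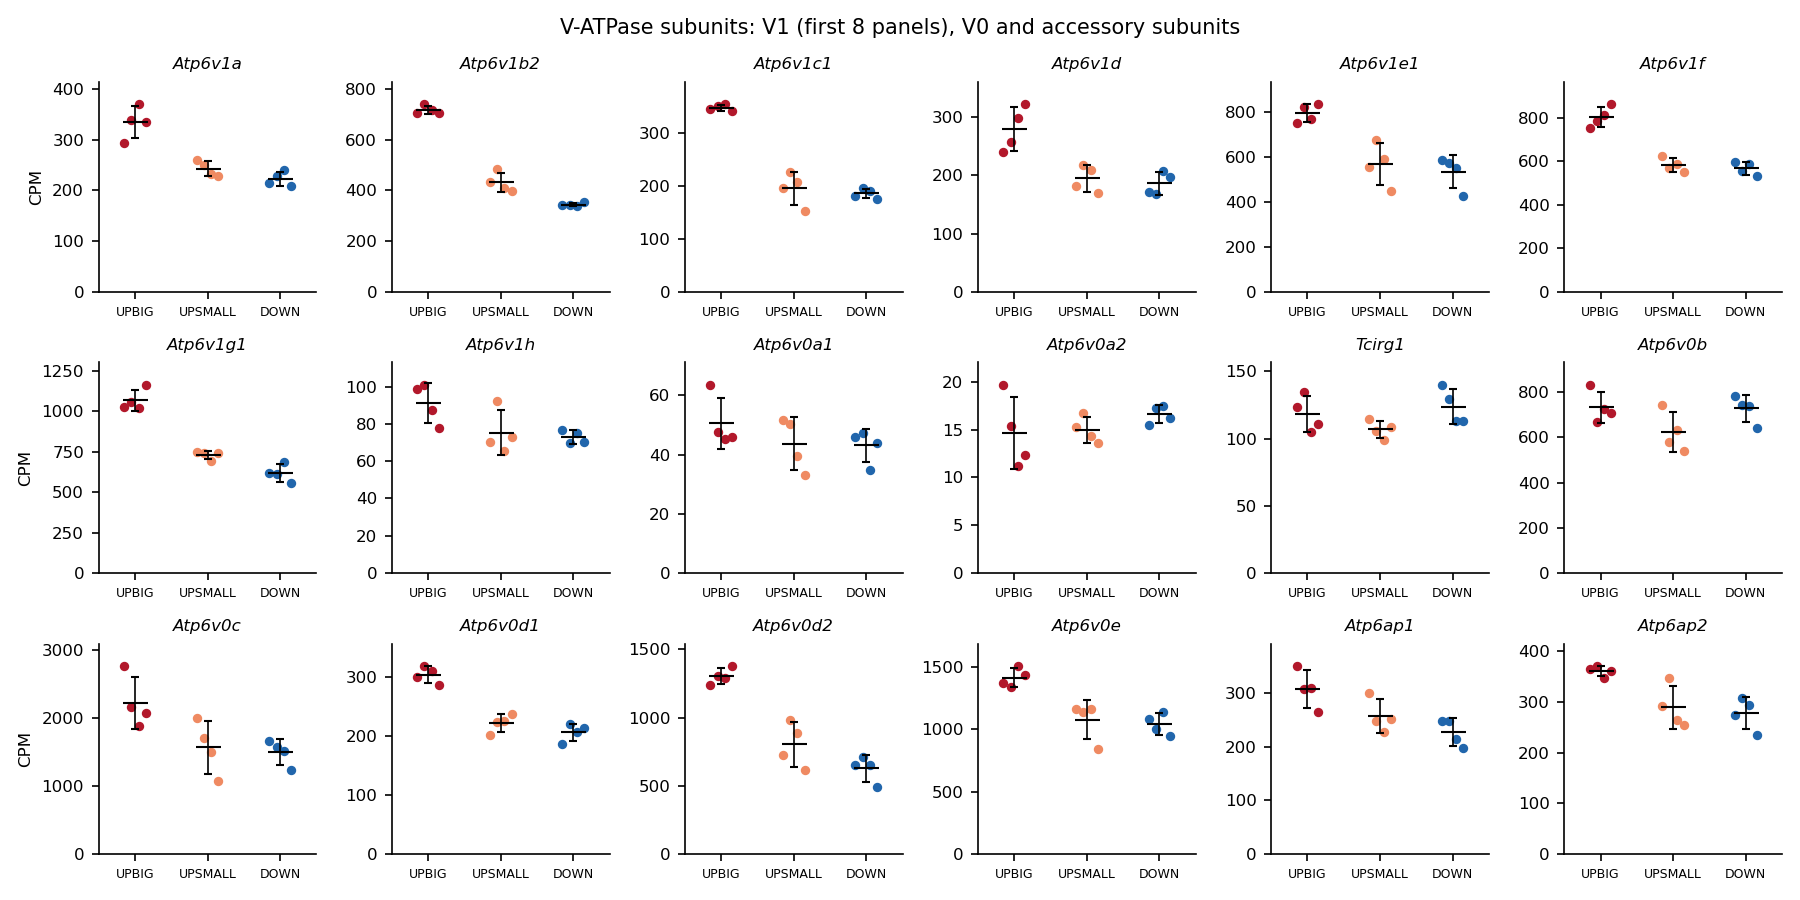
CPM of the 18 V-ATPase genes in each of the 4 libraries per group (points), with the mean and SD in black; each vertical axis starts at 0. The first 8 panels are V1, where UPBIG lies above DOWN without overlap in all 8, while Tcirg1, Atp6v0b, Atp6v0a1 and Atp6v0a2 of V0 overlap.

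Per kilobase of exon, V1 subunits ranged widely within UPBIG libraries. Atp6v1g1 was highest at 941 ± 58 CPM per kilobase and Atp6v1f next at 756 ± 43, while Atp6v1e1 had 194 ± 9.6 and Atp6v1b2 135 ± 3.2 CPM per kilobase (SD, n = 4 each). Atp6v1a, Atp6v1c1 and Atp6v1d lay close together at 55.3 ± 5.2, 62.2 ± 1.0 and 60.7 ± 8.1 CPM per kilobase. Atp6v1h was lowest at 9.38 ± 1.1 CPM per kilobase. These are levels and not differences, and they depend on the annotated exon length: by the longest transcript, Atp6v1h had 18.9 and Atp6v1b2 254 CPM per kilobase.

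In V0, the 4 subunits called higher in UPBIG than in DOWN were Atp6v0c of the ring, both d subunits and the small e subunit; none of the 3 a subunits was called. The a subunits carry the channels through which protons pass. Atp6v0d2 encodes the form of the d subunit that is prominent in osteoclasts and macrophages (chr4:19876841-19922605, minus strand, GRCm38); d joins the ring to the central stalk. It had 1238, 1305, 1287 and 1378 CPM in UPBIG libraries, 726, 985, 890 and 614 CPM in UPSMALL libraries and 649, 713, 654 and 490.0 CPM in DOWN libraries. All UPBIG libraries lay above the other 8, and UPSMALL overlapped DOWN. The log2 fold change was 1.06 ± 0.14 over DOWN, or 2.08-fold (adjusted p = 3.55e-05), and 0.70 ± 0.14 over UPSMALL (adjusted p = 0.00467).

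Its broadly expressed relative Atp6v0d1 had 301, 319, 311 and 286 CPM in UPBIG libraries, 202, 224, 225 and 238 CPM in UPSMALL libraries and 186, 220.1, 207 and 214 CPM in DOWN libraries. It too was higher in UPBIG than in either other group, by 0.56 ± 0.10 over DOWN (adjusted p = 0.000533) and 0.45 ± 0.10 over UPSMALL (adjusted p = 0.00747). Neither difference of Atp6v0d1 passed with library totals alone, at 0.23 over DOWN (adjusted p = 0.136) and 0.17 over UPSMALL (adjusted p = 0.328). Per kilobase, Atp6v0d2 made up 73.8 ± 1.5% of the sum of the d subunits in UPBIG libraries, 70.0 ± 4.9% in UPSMALL libraries and 66.4 ± 4.2% in DOWN libraries (SD, n = 4 each). The share was 73.0 to 76.1% in UPBIG and 60.2 to 69.7% in DOWN libraries, with no overlap, while UPSMALL, at 63.0 to 74.4%, overlapped both. These shares were described and not tested.

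Atp6v0c, the main ring subunit, had 2765, 2168, 1876 and 2070.1 CPM in UPBIG libraries, 2004, 1706, 1502 and 1073 CPM in UPSMALL libraries and 1663, 1579.95, 1519 and 1238 CPM in DOWN libraries. Its log2 fold change over DOWN was 0.57 ± 0.16 (adjusted p = 0.0219), which no longer passed without UPBIG replicate 1 (adjusted p = 0.0902) or DOWN replicate 4 (adjusted p = 0.0588). Over UPSMALL it was 0.50 ± 0.16 (adjusted p = 0.0881), and it passed without UPSMALL replicate 1 (adjusted p = 0.0366). Neither difference of Atp6v0c passed with library totals alone, at 0.25 over DOWN (adjusted p = 0.212) and 0.24 over UPSMALL (adjusted p = 0.28). A processed copy of this gene, Atp6v0c-ps2, had 422 counts over all libraries, against 405316 for Atp6v0c. Atp6v0e, the small e subunit, had 1341 to 1508 CPM in UPBIG libraries, 842 to 1164 CPM in UPSMALL libraries and 945 to 1137 CPM in DOWN libraries. It was 0.44 ± 0.12 higher in UPBIG than in DOWN (adjusted p = 0.0125) and 0.39 ± 0.12 higher than in UPSMALL. The latter missed the threshold (adjusted p = 0.0549) but passed without DOWN replicate 4 (adjusted p = 0.0461) and by DESeq2 (adjusted p = 0.0111). Neither difference of Atp6v0e passed with library totals alone, at 0.12 over DOWN (adjusted p = 0.391) and 0.13 over UPSMALL (adjusted p = 0.431).

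Tcirg1 encodes the a3 subunit, the form known from osteoclasts and from lysosomes of macrophages. It had 124, 135, 105 and 111 CPM in UPBIG libraries, 115, 106, 98.7 and 108 CPM in UPSMALL libraries and 139.9, 129.5, 113 and 113 CPM in DOWN libraries, so that all 3 groups overlapped. The log2 fold change over DOWN was -0.06 ± 0.11 (adjusted p = 0.765). Atp6v0a1 had 0.23 ± 0.16 (adjusted p = 0.359) and Atp6v0a2 -0.18 ± 0.18 (adjusted p = 0.553) in that comparison. Per kilobase Tcirg1 made up 72.3 ± 3.1% of the sum of a1, a2 and a3 in UPBIG libraries, 72.4 ± 3.3% in UPSMALL libraries and 74.8 ± 1.6% in DOWN libraries (SD, n = 4 each). Atp6v0b, the minor ring subunit, had 669 to 832 CPM in UPBIG libraries, 542 to 744 CPM in UPSMALL libraries and 642 to 785 CPM in DOWN libraries, with a log2 fold change over DOWN of 0.01 ± 0.12 (adjusted p = 0.966). With library totals alone Atp6v0a2, Tcirg1 and Atp6v0b were called lower in UPBIG, at -0.50, -0.38 and -0.31. Exons of Atp6v0a2 overlap those of an antisense gene, 4930404A12Rik, which had 110 counts against 3673; no source used here says whether counting used strand, and the reads of this pair cannot be told apart.

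**Figure D4:**
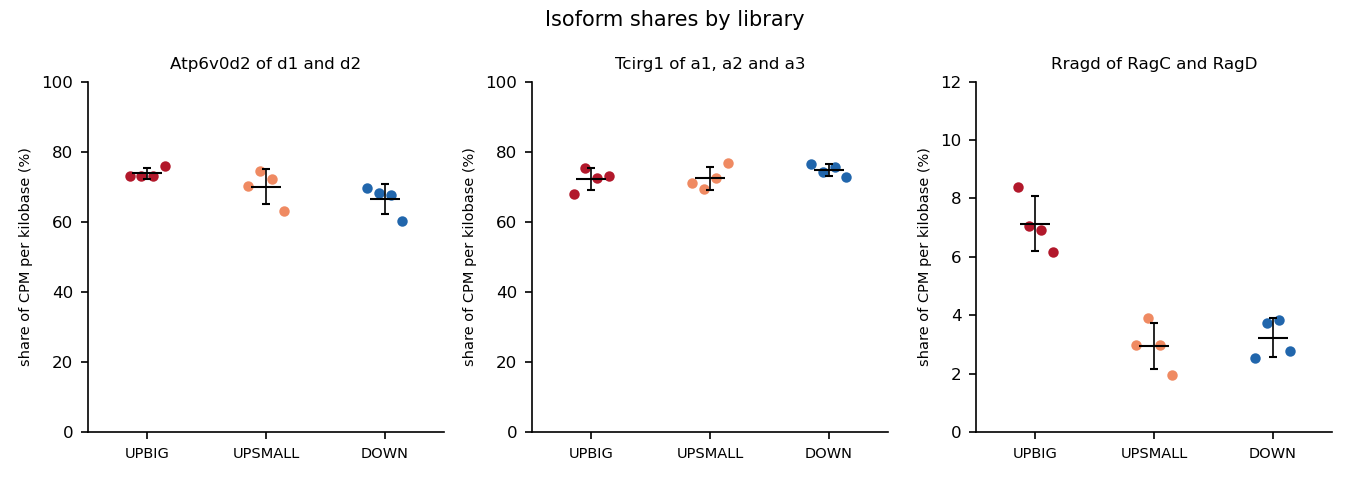
Share of CPM per kilobase, in percent, taken by Atp6v0d2 among the d subunits, Tcirg1 among the a subunits and Rragd among RagC and RagD, in each of the 4 libraries per group (points) with the mean and SD in black. The axes of the first 2 panels run from 0 to 100% and that of the last from 0 to 12%; Rragd is at 6.16 to 8.40% in UPBIG, above both other groups.

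Both accessory subunits were higher in UPBIG than in DOWN libraries and neither passed against UPSMALL. With library totals alone neither passed over DOWN, at 0.12 for Atp6ap1 (adjusted p = 0.504) and 0.0625 for Atp6ap2 (adjusted p = 0.697). Atp6ap1, a glycoprotein of the assembled V0, had 264 to 351 CPM in UPBIG libraries, 229 to 302 CPM in UPSMALL libraries and 199 to 249 CPM in DOWN libraries. Its log2 fold change was 0.44 ± 0.12 over DOWN (adjusted p = 0.0151) and 0.26 ± 0.12 over UPSMALL (adjusted p = 0.256). Atp6ap2, also called the prorenin receptor, had 348 to 371 CPM in UPBIG, 254 to 348 CPM in UPSMALL and 235 to 308 CPM in DOWN libraries, and differed by 0.38 ± 0.12 from DOWN (adjusted p = 0.0284) and by 0.32 ± 0.12 from UPSMALL (adjusted p = 0.124). Without UPBIG replicate 1 the call over DOWN ended for Atp6ap1 (adjusted p = 0.0572), and for Atp6ap2 it ended without UPBIG replicate 1, 2 or 4 or DOWN replicate 1 or 4 (adjusted p of 0.0552 to 0.0755).

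Of the Ragulator genes, 1 of 5 was called higher in UPBIG over DOWN and 0 of 5 over UPSMALL, where edgeR gave 1 at an unadjusted p under 0.05 and DESeq2 and limma-voom gave 0 each. Whether the complexes differ from each other was not tested. Lamtor3 (MP1), which pairs with Lamtor2 (p14), had 155, 182, 143 and 171 CPM in UPBIG libraries, 127, 151, 139 and 98.8 CPM in UPSMALL libraries and 102, 125, 116 and 112 CPM in DOWN libraries. UPBIG stood above DOWN in every library and overlapped UPSMALL. On the log2 scale the change was 0.52 ± 0.13 over DOWN (adjusted p = 0.00833) and 0.33 ± 0.13 over UPSMALL (adjusted p = 0.157). Lamtor2 itself had 285 to 326 CPM in UPBIG libraries, 261 to 324 CPM in UPSMALL libraries and 241 to 282 CPM in DOWN libraries, with a log2 fold change over DOWN of 0.23 ± 0.10 (adjusted p = 0.146). Lamtor1, the lipid-anchored member that holds the complex on the membrane, gave 0.17 ± 0.14 (adjusted p = 0.431) over DOWN. The other pair, Lamtor4 and Lamtor5, gave -0.05 ± 0.12 (adjusted p = 0.847) and 0.04 ± 0.11 (adjusted p = 0.861). Lamtor1, Lamtor2 and Lamtor5 had negative values over DOWN with library totals alone, and Lamtor4 was then called lower at -0.37 (adjusted p = 0.0347). Lamtor3 did not pass over DOWN with that scaling (0.19, adjusted p = 0.246).

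Rragd had the highest fold change of the list in both comparisons. It encodes RagD (chr4:32983037-33022180, plus strand, GRCm38), which pairs with RagA or RagB, and the gene is a known target of the MiT/TFE factors. Its levels were 24.4, 23.4, 19.8 and 18.6 CPM in UPBIG libraries, 6.11, 7.85, 6.41 and 3.78 CPM in UPSMALL libraries and 4.76, 7.94, 7.20 and 5.75 CPM in DOWN libraries. The lowest UPBIG library was more than 10 CPM above the highest of the other 8, and UPSMALL and DOWN overlapped. The log2 fold change was 1.75 ± 0.23 over DOWN, or 3.36-fold (adjusted p = 2.58e-05), and 1.84 ± 0.23 over UPSMALL, or 3.58-fold (adjusted p = 3.93e-05). With library totals alone it was 1.43 and 1.58, and both passed. Rragd was one of the less deeply counted members, with 2453 counts over the 12 libraries.

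Its relative Rragc, for RagC, had the higher level of the pair per kilobase, at 54.3 ± 3.8 CPM per kilobase in UPBIG libraries against 4.17 ± 0.54 for Rragd (SD, n = 4 each). It had 172, 199, 172 and 183 CPM in UPBIG libraries, 128, 125, 135 and 123 CPM in UPSMALL libraries and 118, 132, 116 and 129.9 CPM in DOWN libraries. UPBIG lay above both other groups without overlap. The difference in log2 units was 0.55 ± 0.10 over DOWN (adjusted p = 0.000587) and 0.51 ± 0.10 over UPSMALL (adjusted p = 0.00304). Neither difference of Rragc passed with library totals alone, at 0.23 over DOWN (adjusted p = 0.135) and 0.23 over UPSMALL (adjusted p = 0.177). Per kilobase Rragd was 7.14 ± 0.93% of the sum of Rragc and Rragd in UPBIG libraries, 2.95 ± 0.80% in UPSMALL libraries and 3.23 ± 0.67% in DOWN libraries (SD, n = 4 each), so that RagC transcripts were the main form in all groups. Rraga, for RagA, had 12.1 to 15.6 CPM in UPBIG libraries, 9.24 to 15.8 CPM in UPSMALL libraries and 7.88 to 13.1 CPM in DOWN libraries, with a log2 fold change over DOWN of 0.48 ± 0.21 (adjusted p = 0.14).

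**Figure D5:**
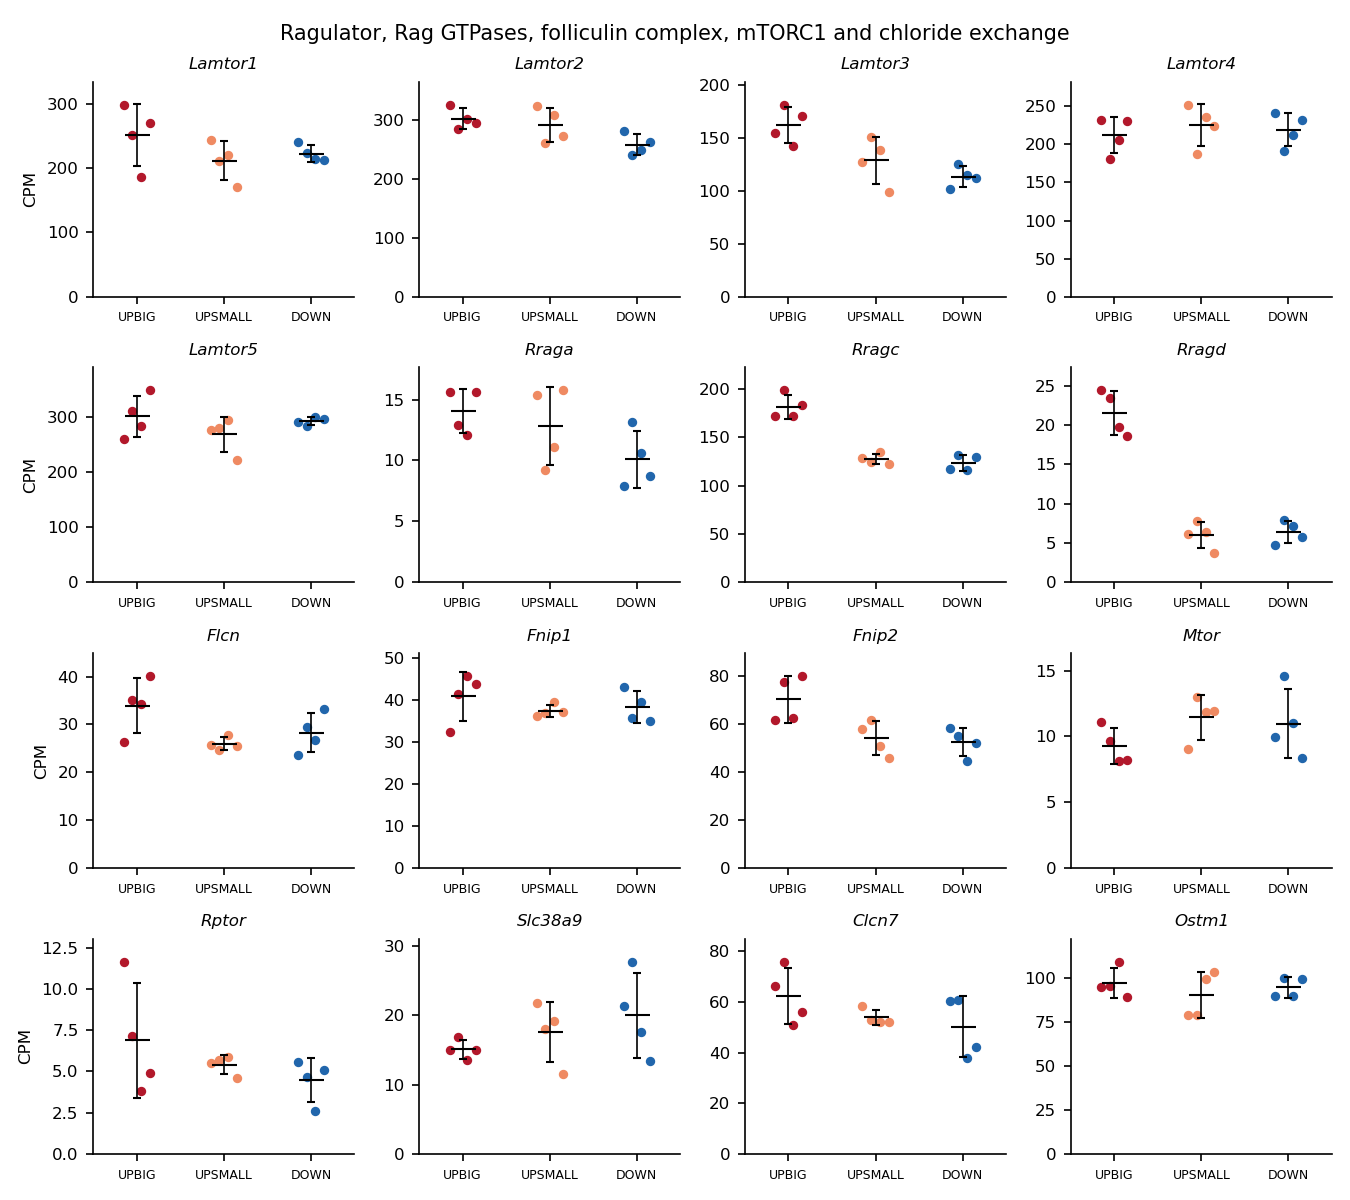
CPM of the 16 genes of Ragulator, the Rag GTPases, the folliculin complex, mTORC1 with its arginine sensor, and chloride exchange in each of the 4 libraries per group (points), with the mean and SD in black; each vertical axis starts at 0. Rragc and Rragd are the panels in which UPBIG lies above both other groups without overlap.

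Of the folliculin complex, which stimulates GTP hydrolysis by RagC and RagD, Fnip2 was called over DOWN. Over UPSMALL edgeR called 0 of the 3, with 2 at an unadjusted p under 0.05 and 0 by DESeq2 or limma-voom. Fnip2 had 61.4, 77.3, 62.3 and 79.9 CPM in UPBIG libraries, 58.0, 61.8, 50.7 and 45.9 CPM in UPSMALL libraries and 58.4, 55.2, 44.5 and 52.1 CPM in DOWN libraries. The UPBIG libraries were all above DOWN, the nearest by about 3 CPM. The log2 fold change over DOWN was 0.42 ± 0.13 (adjusted p = 0.0354), and the call ended without UPBIG replicate 2 or 4 or DOWN replicate 3 or 4 (adjusted p of 0.0583 to 0.11). Over UPSMALL it was 0.38 ± 0.13 (adjusted p = 0.113). Flcn itself gave 0.26 ± 0.15 over DOWN (adjusted p = 0.245) and 0.39 ± 0.15 over UPSMALL (adjusted p = 0.153). Fnip1, the other folliculin partner, gave 0.09 ± 0.13 over DOWN (adjusted p = 0.693). With library totals alone Flcn and Fnip1 were below 0 over DOWN, and Fnip2 did not pass (0.0945, adjusted p = 0.629).

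The kinase itself, its substrate-binding partner and the arginine sensor did not pass in any pairwise comparison (0 of 3 by edgeR, DESeq2 and limma-voom, and 0 at an unadjusted p under 0.05). Mtor had 8.14 to 11.1 CPM in UPBIG libraries, 9.03 to 13.0 CPM in UPSMALL libraries and 8.39 to 14.6 CPM in DOWN libraries, with a log2 fold change over DOWN of -0.24 ± 0.21 (adjusted p = 0.481). Rptor (raptor) had 3.81 to 11.7 CPM in UPBIG libraries, 4.59 to 5.87 CPM in UPSMALL libraries and 2.59 to 5.58 CPM in DOWN libraries, and gave 0.62 ± 0.32 (adjusted p = 0.212). It was the member with the fewest counts, 1304, and the antisense gene Rptoros, whose exons overlap it, had 150. Slc38a9, the lysosomal arginine sensor, gave -0.41 ± 0.22 (adjusted p = 0.224) over DOWN, and was called lower at -0.72 with library totals alone. At this depth and spread, differences of such a size were not separated from 0.

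Neither gene of chloride exchange passed in any pairwise comparison (0 of 2 by edgeR, DESeq2 and limma-voom, and 0 at an unadjusted p under 0.05). Clcn7 had 66.4, 75.9, 50.9 and 55.8 CPM in UPBIG libraries, 58.2, 52.9, 52.2 and 52.1 CPM in UPSMALL libraries and 60.5, 60.6, 38.0 and 42.1 CPM in DOWN libraries. The groups overlapped, and the log2 fold change was 0.31 ± 0.16 over DOWN (adjusted p = 0.203) and 0.21 ± 0.16 over UPSMALL (adjusted p = 0.552). Ostm1, the subunit that stabilises CLC-7, had 89.5 to 109 CPM in UPBIG libraries, 78.9 to 104 CPM in UPSMALL libraries and 89.7 to 100.2 CPM in DOWN libraries, with 0.04 ± 0.12 over DOWN (adjusted p = 0.874). Both values over DOWN were below 0 with library totals alone.

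UPSMALL libraries lay below the midpoint of UPBIG and DOWN for most of the list, but the test of that position called no member. For UPSMALL over DOWN, 0 of the 34 were called by edgeR in either direction, where 1.14% of all genes tested were. At an unadjusted p under 0.05 there were 3 members, Atp6v0d2, Atp6v1b2 and Atp6v1g1, all higher in UPSMALL. Here and elsewhere, the share of all genes at an unadjusted p under 0.05 is not given, so such counts are not read as a result. DESeq2 and limma-voom each called 1, Atp6v1b2. Its log2 fold change over DOWN was 0.33 ± 0.10 (adjusted p = 0.108 by edgeR and 0.0107 by DESeq2). Those of Atp6v0d2 and Atp6v1g1 were 0.36 ± 0.14 (adjusted p = 0.26) and 0.24 ± 0.10 (adjusted p = 0.314), and that of Rragd was -0.09 ± 0.23 (adjusted p = 0.913).

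Whether the steps on either side of UPSMALL differed in size was tested as UPSMALL minus the midpoint of UPBIG and DOWN on the log2 scale. Of the 34 members 29 had values below 0, among them all 18 V-ATPase genes, with a median of -0.16 against 0.01 over all genes tested; with library totals alone the medians were -0.04 and 0.13, and 13 of the 34 were above 0. The edgeR test called 0 members, beside 0.246% of all genes tested. At an unadjusted p under 0.05 there were 7 members: Atp6v0b, Atp6v1b2, Atp6v1c1, Atp6v1d, Atp6v1f, Rragc and Rragd. The share of all genes at that unadjusted threshold is not given here. A value below 0 also arises where UPSMALL lies below both other groups. Atp6v0b was such a case, at -0.22 for UPSMALL over DOWN and 0.01 for UPBIG over DOWN. Rragd was 0.97 ± 0.20 below the midpoint (a value of -0.97, adjusted p = 0.0536) and Atp6v1c1 had -0.38 ± 0.10 (adjusted p = 0.15). DESeq2 called both of these and limma-voom neither.

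Beyond the members, 73 further genes of the same pathways were taken from fixed lists, of which 68 had counts and 64 were tested. In UPBIG over DOWN, 7 of the 64 were higher and 5 lower, with a median of -0.01; over UPSMALL 3 were higher and 2 lower. These shares were near the background of 9.03% higher and 8.48% lower over DOWN and 3.22% and 2.49% over UPSMALL among all genes tested. Of the 73, the 5 without counts, Atp6v0a4, Atp6v1b1, Atp6v1e2, Tldc2 and Kics2, were not analysed here. Rnasek, a small protein bound to the V-ATPase, had 456 to 470 CPM in UPBIG libraries, 291 to 405 CPM in UPSMALL libraries and 278 to 333 CPM in DOWN libraries, with a log2 fold change of 0.64 ± 0.11 over DOWN (adjusted p = 0.000391) and 0.42 ± 0.11 over UPSMALL (adjusted p = 0.0248). The call over UPSMALL ended without any one UPBIG library or without UPSMALL replicate 3 or 4 (adjusted p of 0.0503 to 0.0724). With library totals alone Rnasek passed over DOWN (0.32, adjusted p = 0.0266) but not over UPSMALL (0.15, adjusted p = 0.335). Among 12 tested genes for assembly and regulation of the pump, 3 were higher and 2 lower in UPBIG than in DOWN. The higher ones were Vma21, an assembly chaperone (0.45 ± 0.12), Wdr7 of the rabconnectin complex (0.55 ± 0.13) and Snx10, a sorting nexin tied to V-ATPase trafficking (0.44 ± 0.10), with adjusted p of 0.0111, 0.00588 and 0.00656; with library totals alone none of the 3 passed over DOWN (0.12 to 0.23). Wdr7 was also higher than in UPSMALL, by 0.60 ± 0.13 (adjusted p = 0.00762), a call that did not pass with library totals alone (0.32, adjusted p = 0.121). The lower ones were Rogdi, a partner of Wdr7, at -2.05 ± 0.32 (adjusted p = 0.000304) and Ncoa7, a TLDc protein that binds the pump, at -1.14 ± 0.19 (adjusted p = 0.000384). Rogdi had 7.91, 3.95, 2.05 and 9.48 CPM in UPBIG libraries, 12.1, 9.84, 13.7 and 14.6 CPM in UPSMALL libraries and 22.5, 27.1, 22.9 and 24.3 CPM in DOWN libraries, with no overlap between any of the groups.

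Among lysosomal ion channels and exchangers, 2 of 12 were higher in UPBIG than in DOWN, both mucolipins, the calcium-permeable TRPML channels. Mcoln3 had 164, 184, 185 and 170.0 CPM in UPBIG libraries, 84.2, 87.6, 85.8 and 64.0 CPM in UPSMALL libraries and 69.5, 66.8, 59.2 and 62.7 CPM in DOWN libraries. Its difference on the log2 scale was 1.44 ± 0.12 over DOWN, or 2.72-fold (adjusted p = 6.46e-08), and 1.13 ± 0.12 over UPSMALL (adjusted p = 3.22e-06). Mcoln1, whose channel is found on lysosomes of most cells, was 0.55 ± 0.16 higher than in DOWN (adjusted p = 0.0189), but not once UPBIG replicate 1 was left out (adjusted p = 0.0631). The Mcoln1 difference did not pass with library totals alone either (0.23, adjusted p = 0.322). Tmem63a, a mechanosensitive channel, was lower in UPBIG than in UPSMALL at -0.81 ± 0.19 (adjusted p = 0.016), which ended without UPBIG replicate 2 (adjusted p = 0.0518).

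GATOR and KICSTOR, which act upstream of the Rags, had 0 of 11 tested genes called by edgeR in any pairwise comparison. At an unadjusted p under 0.05 there was 1 in UPBIG over DOWN and 1 in UPBIG over UPSMALL; limma-voom called 1 in UPBIG over DOWN and DESeq2 0. For mTORC1 and its GTPase switch outside the members, 0 of 8 were called by any of the 3 tools, with 2 at an unadjusted p under 0.05 in UPBIG over UPSMALL. Of 8 amino acid sensors, Castor1, a cytosolic arginine sensor, was lower in UPBIG than in DOWN at -1.52 ± 0.44 (adjusted p = 0.0213), on 0.762 to 4.84 CPM in UPBIG libraries, against 5.19 to 9.63 CPM in DOWN libraries; the call ended without UPBIG replicate 4 (adjusted p = 0.0664) or DOWN replicate 3 (adjusted p = 0.0744). Of 6 mTORC1 substrates tested, Lpin1, a phosphatidate phosphatase, was 0.45 ± 0.14 higher (adjusted p = 0.0361), and Eif4ebp1, a repressor of translation, was lower at -0.46 ± 0.12 (adjusted p = 0.01). The Lpin1 call ended without UPBIG replicate 2, 3 or 4 or DOWN replicate 2 or 3 (adjusted p of 0.0655 to 0.123). UPBIG and DOWN libraries overlapped for Lpin1, and with library totals alone it did not pass (0.13, adjusted p = 0.564). Of the 4 MiT/TFE factors, Mitf was lower in UPBIG than in both other groups, at -0.68 ± 0.17 over DOWN (adjusted p = 0.00696) and -0.67 ± 0.17 over UPSMALL (adjusted p = 0.0202). The comparison with UPSMALL did not pass without UPBIG replicate 1, 2 or 4 or UPSMALL replicate 4 (adjusted p of 0.0507 to 0.075).

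Total counts per library were 17109669 to 23282621. Mitochondrial transcripts took 4.05 to 5.19% of counts in UPBIG libraries, 2.68 to 3.43% in UPSMALL libraries and 2.49 to 3.15% in DOWN libraries. All 14 alveolar macrophage markers had counts in every group. They summed to 11642 to 15023 CPM in UPBIG libraries, 11367 to 16537 CPM in UPSMALL libraries and 8724 to 12690 CPM in DOWN libraries. Of the 14, 9 were higher and 1 lower in UPBIG than in DOWN. Chil3 took most of the sum, at 6234 to 9332 CPM in UPBIG, 7766 to 12486 CPM in UPSMALL and 5614 to 9856 CPM in DOWN libraries. It was not called in any pairwise comparison. The 10 dendritic cell markers summed to 2.99 to 8.67 CPM in UPBIG, 8.00 to 33.7 CPM in UPSMALL and 38.1 to 112 CPM in DOWN libraries (6 lower in UPBIG than in DOWN), with Siglech at 0 in UPSMALL. The 10 markers of T and NK cells summed to 4.17 to 16.9 CPM in UPBIG, 1.87 to 8.15 CPM in UPSMALL and 28.5 to 99.5 CPM in DOWN libraries (7 lower in UPBIG than in DOWN), with Ncr1 at 0 in UPBIG and UPSMALL. The 7 of 8 neutrophil markers with counts summed to 388 to 431 CPM in UPBIG, 186 to 238 CPM in UPSMALL and 157 to 198 CPM in DOWN libraries, with Camp at 0 in UPBIG and UPSMALL; 2 of them were called higher and 1 lower in UPBIG than in DOWN, and likewise 2 and 1 against UPSMALL. Markers of B cells summed to at most 27.4 CPM, and the 3 of 5 red cell markers with counts to at most 0.26 CPM. The 9 of 10 epithelial markers with counts summed to 18.8 to 232 CPM in UPBIG, 18.4 to 63.0 CPM in UPSMALL and 13.7 to 27.6 CPM in DOWN libraries. Of these epithelial markers, 1 was called higher and 1 lower in UPBIG than in DOWN. Between UPBIG and DOWN libraries, the mitochondrial share and the sums for dendritic cells, T and NK cells and neutrophils did not overlap. The sums for alveolar macrophages, B cells and epithelium did overlap. What part such sums and the mitochondrial share had in the differences of the members was not tested.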

How the data were processed

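Polyadenylated RNA of alveolar macrophages was sequenced in 12 libraries, 4 per group. The authors deposited an expected count for each gene and library, of which 13.8% were not whole. STAR, RSEM and mm10 stand in the submitters' processing notes, with no version; no source used here gives the strand setting. Totals were 17109669 to 23282621 counts per library, and PCR copies are not independent molecules.

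Expected counts were rounded and tested with edgeR 4.0.16 (R 4.3.3): TMM scaling, the filter on low counts of filterByExpr, robust quasi-likelihood F tests on all 12 libraries, Benjamini-Hochberg adjustment over 12625 genes and a threshold of 0.05. Each SE was taken as log2 fold change over the root of F. CPM uses TMM-scaled totals, and levels per kilobase use the exon union of GENCODE vM21 (GRCm38). Identifiers were paired with symbols for 26775 of 26855 genes. The statistics were tested on simulated data.

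Alternatives were size factors in place of TMM, totals with no composition factor, limma-voom (limma 3.58.1, quality weights), DESeq2 1.42.0, other filters, a minimum fold of 1.2, a replicate block, 8 libraries only, leaving out each library, and the longest transcript as length.

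All 34 members are named, those called with their value in every library or its range; of further pathway genes, per list and comparison the called ones with the smallest p, at most 4, and any needed to identify a count of 5 or fewer. Members and lists were chosen with earlier results of these data known.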

Additional observations from a re-analysis of the deposited data

Results flagged for a closer look

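Within 102 groups of 4 libraries (34 genes in 3 groups), 4 held a library far from the other 3 by Dixon's criterion (the gap to the nearest library over the whole range); chance flags about 1 in 20 such groups. Atp6v0a1 had 63.49 CPM in UPBIG replicate 1, against 45.35 to 47.64 CPM in the other UPBIG libraries. Atp6v0e had 842.2 CPM in UPSMALL replicate 4, against 1137 to 1164 CPM in the other UPSMALL libraries. Atp6v1g1 had 691.5 CPM in UPSMALL replicate 3, against 742.4 to 746.3 CPM in the other UPSMALL libraries. Clcn7 had 58.22 CPM in UPSMALL replicate 1, against 52.15 to 52.92 CPM in the other UPSMALL libraries.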

How the results depend on the processing

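For UPBIG over DOWN, the 17 members called higher became 5 with library totals alone, with 5 lower in place of 0, and 11 against a minimum fold of 1.2; leaving out each library gave 14 to 17 higher and 0 lower. For UPBIG over UPSMALL, the 11 became 4 with library totals alone (Atp6v0d2, Atp6v1b2, Atp6v1c1 and Rragd). Of the 12625 genes tested, 189 were then higher and 1433 lower. The median of the members was 0.06, against -0.31 over all genes, and 19 of the 34 were above 0. The 11 became 5 against the minimum fold, and 9 to 12 without 1 library. The share of all genes passing the minimum fold is not given here for either comparison. DESeq2 gave 13 (Atp6v0c and Atp6v0e added) and the replicate block 14 (also Atp6ap2). For UPSMALL over DOWN, DESeq2, limma-voom and the replicate block each gave 1 (Atp6v1b2) in place of 0. For UPSMALL against the midpoint, DESeq2 and the block gave 2 (Atp6v1c1 and Rragd), and both other filters gave 1 (Rragd); leaving out a library gave 0 to 1. Deviations of same-numbered libraries had r of -0.03 to 0.15, mostly above 0, and those of differently numbered ones -0.12 to 0.11, mostly below 0. Each deviation was taken from its group's mean, so deviations within a group sum to 0. The values below 0 thus follow from those above 0 and are no separate result. Whether a number marks an animal or batch is not stated in the labels, and the main test did not pair samples by number. These values do not settle whether same-numbered libraries share an origin. Used as a block, the numbers changed no call in UPBIG over DOWN.

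With library totals alone, values for UPBIG over DOWN turned to -0.094 for Atp6v0a1, -0.31 for Atp6v0b, -0.15 for Lamtor1, -0.097 for Lamtor2, -0.28 for Lamtor5, -0.064 for Flcn, -0.23 for Fnip1, -0.012 for Clcn7 and -0.29 for Ostm1; limma-voom gave -0.042 for Atp6v0b. This scaling omits the composition factors, which were lowest in UPBIG. Without 1 library, values over DOWN ran from -0.13 to 0.011 for Tcirg1, -0.053 to 0.061 for Atp6v0b, -0.088 to 0.026 for Lamtor4, -0.036 to 0.10 for Lamtor5 and -0.021 to 0.082 for Ostm1, and for Rragd in UPSMALL over DOWN from -0.24 to 0.090. Isoform shares by the longest transcript moved by less than their SD. Depth limits Rptor, Rragd and Mtor most, with 1304, 2453 and 2548 counts over all libraries.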
